A study of Homo sapiens with 6 samples.

Results

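Transcripts of 9 enzymes of the tricarboxylic acid cycle and its isocitrate dehydrogenases were followed in OCI-AML2, a human line of acute myeloid leukaemia, after knockdown of TAZ, the gene for the mitochondrial cardiolipin remodelling enzyme tafazzin. The 9 genes were taken by name (IDH1, IDH2, IDH3A, IDH3B, IDH3G, OGDH, FH, MDH2 and CS). All 9 are listed in both deposited expression tables, out of 13002 genes in all, and all 9 passed the filter on low values in every comparison. Total RNA was sequenced from 6 libraries, an A and a B library for each of 3 groups: cells with TAZ shRNA1, cells with TAZ shRNA2 and cells with a control hairpin. All 3 groups received a hairpin by lentivirus and were then kept in puromycin at 2.0 µg/mL for 3 days, so the control cells were infected and selected too. The labels name the control hairpin a scramble, while its columns in the tables are headed GFP. No label states that the A and B libraries are separate cultures. The p-values below therefore reflect how far such libraries differ, which may be a technical spread.

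The tricarboxylic acid cycle oxidises acetyl groups in the mitochondrial matrix and passes the electrons to the respiratory chain, whose complexes are held in a membrane rich in cardiolipin. Isocitrate dehydrogenases turn isocitrate into alpha-ketoglutarate by separate routes: IDH1 in the cytosol and peroxisomes and IDH2 in mitochondria use NADP+, while IDH3, built from the subunits encoded by IDH3A, IDH3B and IDH3G, uses NAD+ and is the form that runs the cycle forward. IDH1 and IDH2 are known in acute myeloid leukaemia for recurrent mutations; transcript levels as measured here say nothing about mutations.

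Recovered reads in listed genes lay between 18820643 and 20980854 per library, and the 10 most abundant genes took 8.01% to 9.14% of them. TAZ checked the labels: it stood at 4.02 and 4.10 RPKM with TAZ shRNA1, at 1.47 and 2.13 RPKM with TAZ shRNA2, and at 11.3 and 11.9 RPKM in the control (RPKM, reads per length of gene and per depth of library). Of 8 myeloid markers 7 were listed and 6 stood above 1 RPKM in all 6 libraries. KIT, a receptor of immature blood cells, had 1 to 15 reads per library, and ANPEP was not analysed here. Of 6 lymphoid markers 3 were listed, at a summed 0.577 and 0.635 RPKM with shRNA1, 0.572 and 0.611 RPKM with shRNA2, and 2.19 and 1.28 RPKM in the control. Of the erythroid markers EPOR was listed, at 2.75 to 4.99 RPKM, and the other markers of both lists, among them CD3E, CD3G, MS4A1, HBB, HBA1, HBA2 and ALAS2, were not analysed here. The summed myeloid markers, carried mostly by LYZ (lysozyme), stood at 5578 and 5027 RPKM with shRNA1, at 4529 and 3771 RPKM with shRNA2, and at 1086 and 931 RPKM in the control. MPO, the myeloperoxidase in the same list, went the other way, with 5.16 and 4.63 RPKM with shRNA1, 1.02 and 1.49 RPKM with shRNA2, and 11.2 and 10.1 RPKM in the control. The part of these shifts in the differences below was not tested. In bulk RNA, fewer cells of a type and less RNA per cell cannot be told apart.

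IDH1 was the member that differed most between groups, and it lay above the control with one hairpin and below it with the other. OGDH and CS were higher with shRNA1, and OGDH was also higher with shRNA2.

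The threshold was a limma adjusted p of 0.05. Of the 9 members, 3 rose with shRNA1 (OGDH, CS and IDH1) and 0 fell, where 18.6% of 10613 genes tested were called, 9.99% as higher and 8.58% as lower. With shRNA2, 1 rose (OGDH) and 1 fell (IDH1), where 15.7% of 10659 genes were called, 8.12% as higher and 7.61% as lower. For shRNA2 over shRNA1 1 fell (IDH1), where 10.9% of 10660 genes were called, 4.78% as higher and 6.1% as lower. As the mean of both hairpins 2 rose (OGDH and CS), where 26.3% were called, 14% as higher and 12.3% as lower. At an unadjusted p under 0.05 limma has no further member with shRNA1 and none with shRNA2; for shRNA2 over shRNA1 it adds CS. Members lost calls when single libraries were left out, as given below for each, and calls over all genes tested moved as well. Without shRNA1 A and without shRNA1 B, log2 fold changes with shRNA1 were 0.75 and 0.77 for OGDH and 0.73 and 0.73 for CS. IDH1 had 0.57 and 0.59. IDH2, IDH3A, IDH3B, IDH3G, FH and MDH2 were called in none of these comparisons.

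**Figure D1:**
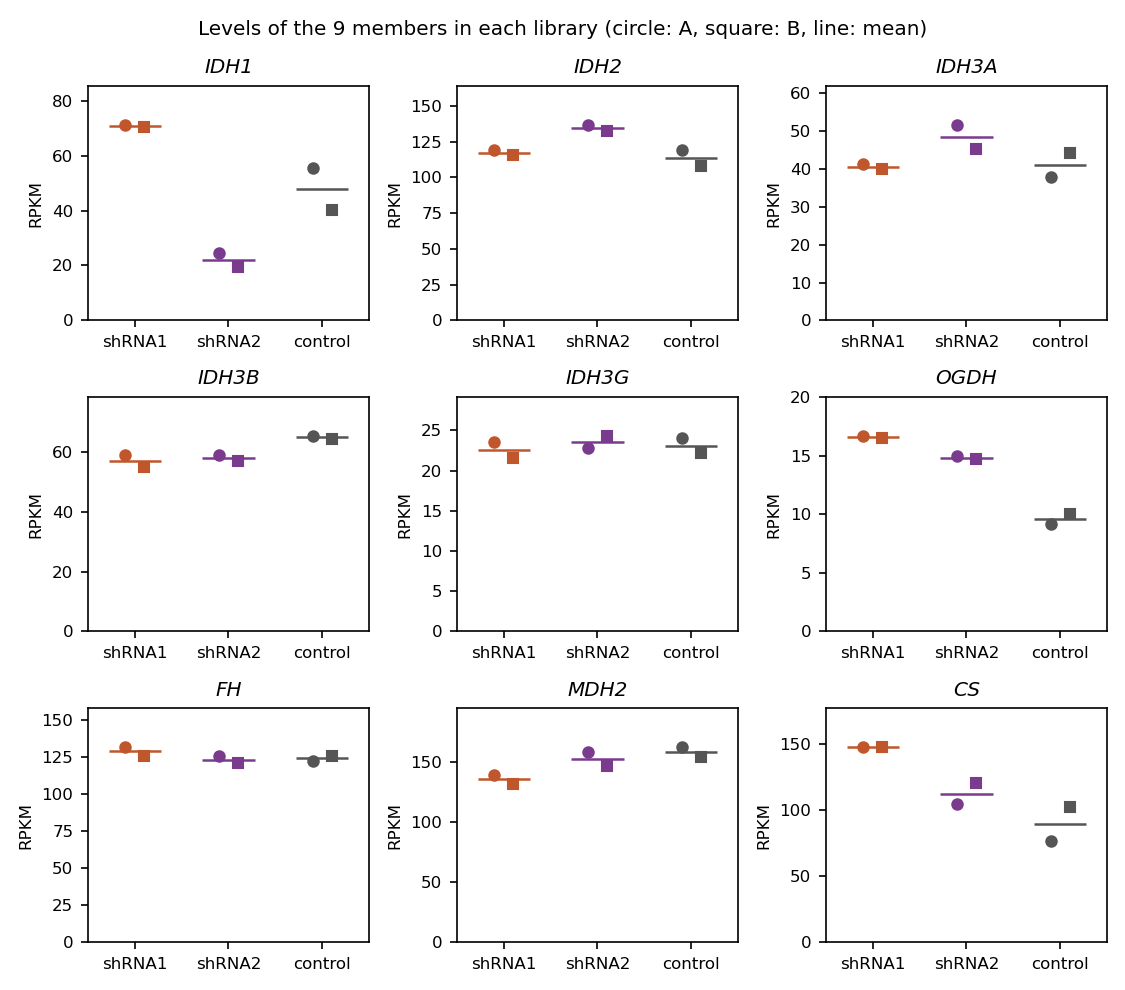
RPKM of the 9 members in each library, 1 panel per gene, with TAZ shRNA1, TAZ shRNA2 and control from left to right; circles are library A, squares library B and lines the mean of both. IDH1 is between 70.3 and 71.1 RPKM with shRNA1, between 19.6 and 24.5 RPKM with shRNA2 and between 40.3 and 55.3 RPKM in the control, with no overlap of groups.

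IDH1 stood at 71.1 and 70.3 RPKM with shRNA1, at 24.5 and 19.6 RPKM with shRNA2, and at 55.3 and 40.3 RPKM in the control. The 3 groups did not overlap, and the control libraries were further apart than those of either hairpin. These levels rest on 3607 and 3649 reads with shRNA1, 1174 and 969 with shRNA2, and 2435 and 2009 in the control. Group means were 70.7 ± 0.579 RPKM with shRNA1, 22.1 ± 3.50 RPKM with shRNA2 and 47.8 ± 10.6 RPKM in the control (SD, n = 2 each).

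With shRNA2, IDH1 fell by 1.09 on the log2 scale against the control (SE 0.19), to 0.470 of the control level (95% interval 0.344 to 0.644, limma adjusted p = 0.0133). With shRNA1 it rose by 0.58 (SE 0.16), or 1.49-fold (95% interval 1.15 to 1.94, limma adjusted p = 0.0472). The difference between the hairpins does not use the control levels: the log2 fold change of IDH1 for shRNA2 over shRNA1 was -1.67 (SE 0.17, limma adjusted p = 0.00146), which puts it at 0.315 of the shRNA1 level. The fall with shRNA2 and the difference between hairpins passed the threshold under every alternative run, with each library left out in turn included. The rise with shRNA1 did not. Its log2 fold change was 0.80 without control A and 0.35 without control B, and its adjusted p was 0.146 without shRNA1 A and 0.188 without shRNA1 B. It also missed the threshold with no filter (0.055), in one fit of all 6 libraries (0.051) and with median centring (0.062). Averaged over both hairpins, IDH1 had a log2 fold change of -0.26 against the control (limma adjusted p = 0.238). Leaving out control B gave -0.48 (0.0542) and leaving out control A gave -0.029 (0.917). The authors' deposited tables give IDH1 log2 fold changes of 0.58 with shRNA1 and -1.10 with shRNA2.

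The sequence before the start of IDH1 is shown because this gene carries the difference between the hairpins and shares its upstream region with a divergent transcript, IDH1-AS1. The same stretch of CS, which was also called with shRNA1, is set beside it. Both are RefSeq sequence of GRCh38.p14, minus strand, 5′ to 3′, from 250 to 63 bases before the RefSeq start: IDH1 at chr2:208255134-208255321 and CS at chr12:56300393-56300580. Capitals mark CCAAT in either orientation (CCAAT or ATTGG), the box bound by the NF-Y factor.
IDH1: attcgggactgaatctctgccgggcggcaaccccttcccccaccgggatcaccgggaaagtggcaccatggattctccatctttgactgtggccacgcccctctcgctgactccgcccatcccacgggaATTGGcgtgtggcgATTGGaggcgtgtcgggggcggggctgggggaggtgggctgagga
CS: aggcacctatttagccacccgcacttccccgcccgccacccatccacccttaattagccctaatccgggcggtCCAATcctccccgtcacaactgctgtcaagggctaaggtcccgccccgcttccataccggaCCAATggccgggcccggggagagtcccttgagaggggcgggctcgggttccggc
RefSeq windows were matched for 8 of the 9 members, all but OGDH. The IDH1 stretch held 2 CCAAT boxes and the CS stretch 2, and 25.3% of 35116 gene windows of the same 188 bases held at least 1. GGGCGG, the GC box bound by Sp1, was found 3 times in IDH1 and 4 times in CS on both strands together, and in 32.6% of windows. CACGTG, the E-box bound by MYC and MAX, occurs in neither stretch (4.08% of windows), nor does TGACGTCA, the full CRE (0.783% of windows). These are matches of letters in a window of another build than the hg19 of the deposited values, and nothing about binding was measured.

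IDH1-AS1 (gene ID 100507475) runs the other way, and in the GENCODE annotation 113 bases lie between its outermost start and that of IDH1. It had 3 and 4 reads with shRNA1, 10 and 13 with shRNA2, and 7 and 5 in the control. These are 0.296 and 0.386 RPKM with shRNA1, 1.05 and 1.32 RPKM with shRNA2, and 0.797 and 0.502 RPKM in the control. Its reads were most frequent where IDH1 was lowest. It did not pass the filter on low values, and at these counts no fold change is given. The strand setting of the counting is not given in the sources used here. Whether the IDH1-AS1 level bears on that of IDH1 was not tested.

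IDH2, the mitochondrial NADP+ enzyme, stood at 119 and 116 RPKM with shRNA1, at 137 and 133 RPKM with shRNA2, and at 119 and 108 RPKM in the control. Both shRNA2 libraries lay above the other 4, and the shRNA1 and control libraries overlapped. IDH2 had log2 fold changes of 0.05 with shRNA1 (95% interval -0.23 to 0.33, limma adjusted p = 0.787), 0.25 with shRNA2 (-0.11 to 0.61, adjusted p = 0.302) and 0.20 for shRNA2 over shRNA1 (-0.085 to 0.48, adjusted p = 0.355). After a correction for gene length within each library, IDH2 was called higher with shRNA2, with a log2 fold change of 0.35 (adjusted p = 0.0418).

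The share of IDH1 in the summed RPKM of IDH1 and IDH2 was 37.4% and 37.8% with shRNA1, 15.2% and 12.9% with shRNA2, and 31.7% and 27.2% in the control. IDH2 over IDH1 was 1.68 and 1.64 with shRNA1, 5.57 and 6.78 with shRNA2, and 2.15 and 2.68 in the control. The ratio was highest in both shRNA2 libraries and lowest in both shRNA1 libraries. Over the 4 hairpin libraries its log2 value differed from that of the 2 control libraries by 0.41 (exact permutation test, two-sided, p = 0.667). This difference averages both hairpins, whose ratios lay on opposite sides of the control. It was 0.72 without shRNA1 A, 0.73 without shRNA1 B, 0.14 without shRNA2 A, 0.049 without shRNA2 B and 0.25 without control A. The 15 arrangements of 4 against 2 libraries cannot give a p below 0.0667. Of the 4 ratios tested this way, summed IDH3 over IDH1 plus IDH2 differed by -0.14 on the log2 scale (p = 0.467, exact permutation test), at -0.28 without control A, -0.00096 without control B, and -0.086 and -0.069 without shRNA1 A and B.

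**Figure D2:**
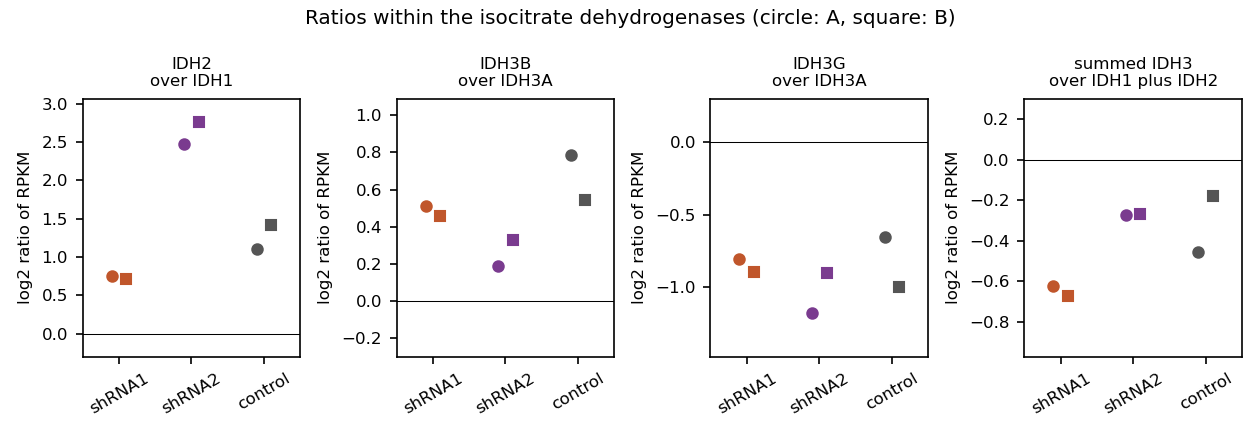
Log2 ratios of RPKM within each library for IDH2 over IDH1, IDH3B over IDH3A, IDH3G over IDH3A, and the summed IDH3 subunits over IDH1 plus IDH2, with TAZ shRNA1, TAZ shRNA2 and control from left to right; circles are library A and squares library B. IDH2 over IDH1 is 0.75 and 0.72 with shRNA1, 2.48 and 2.76 with shRNA2, and 1.11 and 1.42 in the control.

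None of the 3 subunits of IDH3 was called in any comparison. IDH3A, the catalytic subunit, stood at 41.3 and 40.1 RPKM with shRNA1, at 51.6 and 45.4 RPKM with shRNA2, and at 37.8 and 44.2 RPKM in the control; the shRNA2 libraries were the highest. IDH3B stood at 58.8 and 55.0 RPKM with shRNA1, at 58.9 and 57.0 RPKM with shRNA2, and at 65.2 and 64.4 RPKM in the control, so all 4 knockdown libraries lay below both control libraries. IDH3G, with IDH3B one of the regulatory subunits, overlapped between all groups, at 23.6 and 21.5 RPKM with shRNA1, 22.8 and 24.3 RPKM with shRNA2, and 24.0 and 22.2 RPKM in the control.

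IDH3B had log2 fold changes of -0.19 with shRNA1 (95% interval -0.45 to 0.076, limma adjusted p = 0.265) and -0.16 with shRNA2 (-0.48 to 0.16, adjusted p = 0.456). Under the other settings these ran from -0.22 to -0.011 with shRNA1 and from -0.19 to -0.021 with shRNA2. The value of -0.011 came after the correction for gene length, which was not applied to the levels or the ratios. IDH3A had -0.0076 with shRNA1 (-0.30 to 0.28) and 0.24 with shRNA2 (-0.12 to 0.60). The summed level of the 3 subunits was 124 and 117 RPKM with shRNA1, 133 and 127 RPKM with shRNA2, and 127 and 131 RPKM in the control. IDH3B over IDH3A was 1.43 and 1.37 with shRNA1, 1.14 and 1.25 with shRNA2, and 1.73 and 1.45 in the control. All 4 knockdown libraries lay below both control libraries, and the log2 ratio differed by -0.29 in the mean (exact permutation test, p = 0.133, and 0.533 adjusted over the 4 ratios). This difference was -0.17 without control A. IDH3G over IDH3A differed by -0.12 (p = 0.533, exact permutation test), by 0.051 without control A, by -0.29 without control B and by -0.042 without shRNA2 A.

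OGDH, the first subunit of the alpha-ketoglutarate dehydrogenase complex, which uses what the isocitrate dehydrogenases make, was the member with the lowest level in every group but was higher in all 4 knockdown libraries. It stood at 16.7 and 16.5 RPKM with shRNA1, at 15.01 and 14.7 RPKM with shRNA2, and at 9.21 and 10.0 RPKM in the control. The 3 groups did not overlap, and libraries within a group were close. These levels rest on 709 reads in control A, the fewest of any member in any library, to 1499 reads in shRNA1 B.

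OGDH rose by 0.76 on the log2 scale with shRNA1 (SE 0.12, limma adjusted p = 0.00928), or 1.69-fold, and by 0.60 with shRNA2 (SE 0.14, adjusted p = 0.0289), or 1.52-fold. Both comparisons use the same control libraries. For shRNA2 over shRNA1 the log2 fold change was -0.16 (95% interval -0.42 to 0.11, adjusted p = 0.443). As the mean of both hairpins over the control the log2 fold change was 0.68 (SE 0.10, limma adjusted p = 0.00310), and this call passed under every alternative run. Alone, the shRNA1 call was lost without shRNA1 A (0.0512) or shRNA1 B (0.0676), and the shRNA2 call without shRNA2 A (0.101), shRNA2 B (0.114) or control A (0.0632), with log2 fold changes of 0.70 to 0.82 and 0.55 to 0.66 over the left-out libraries. The authors' deposited tables give 0.79 and 0.64 for shRNA1 and shRNA2.

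FH, fumarase, and MDH2, the mitochondrial malate dehydrogenase, carry the next steps toward oxaloacetate and were among the most abundant members. FH stood at 132 and 126 RPKM with shRNA1, at 125 and 121 RPKM with shRNA2, and at 122 and 126 RPKM in the control. The control overlapped both hairpins, and both shRNA1 libraries lay just above both shRNA2 libraries. MDH2 stood at 139 and 131 RPKM with shRNA1, at 158 and 147 RPKM with shRNA2, and at 162 and 154 RPKM in the control, so both shRNA1 libraries lay below the other 4. Neither was called. FH had log2 fold changes of 0.053 with shRNA1 and -0.013 with shRNA2, with 95% intervals of -0.22 to 0.32 and -0.36 to 0.34, and MDH2 had -0.22 and -0.051, with intervals of -0.50 to 0.057 and -0.42 to 0.32. FH has an annotated pseudogene, FHP1, that could share its reads.

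CS, citrate synthase, which joins acetyl-CoA to oxaloacetate and opens the cycle, stood at 148 and 148 RPKM with shRNA1, at 105 and 121 RPKM with shRNA2, and at 76.9 and 103 RPKM in the control. The 3 groups did not overlap, but the lower shRNA2 library and the higher control library were close, and the 2 control libraries were further apart than the means of shRNA2 and the control. Group means were 148 ± 0.120 RPKM with shRNA1, 113 ± 11.4 RPKM with shRNA2 and 89.7 ± 18.2 RPKM in the control (SD, n = 2 each). CS rose by 0.73 on the log2 scale with shRNA1 (SE 0.16, limma adjusted p = 0.0224), or 1.66-fold, and by 0.53 as the mean of both hairpins (SE 0.14, adjusted p = 0.0250). With shRNA2 alone the log2 fold change was 0.34 (95% interval -0.098 to 0.77, adjusted p = 0.250), and for shRNA2 over shRNA1 it was -0.39 (-0.76 to -0.023, adjusted p = 0.166).

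The CS call with shRNA1 was lost without shRNA1 A (0.0755) or shRNA1 B (0.110), with log2 fold changes of 0.52 to 0.94 over the left-out libraries. The call for both hairpins was lost without control A (log2 fold change 0.33, adjusted p = 0.167), shRNA1 A, shRNA1 B or shRNA2 B. The shRNA2 value was 0.13 without control A and 0.55 without control B. In the authors' deposited table CS has a log2 fold change of 0.34 with shRNA2 and an adjusted p of 0.0383, and is called there.

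The median log2 fold change of the 9 members was 0.050 with shRNA1, 0.028 with shRNA2 and 0.026 for shRNA2 over shRNA1, beside medians over all genes tested of -0.00048, -0.0045 and -0.0086. The 6 members called in no comparison had log2 fold changes of -0.22 to 0.053 with shRNA1 and -0.16 to 0.25 with shRNA2. Their 95% intervals together reached from 0.707 to 1.26 times the control level with shRNA1 and from 0.715 to 1.52 times with shRNA2. The authors' deposited tables call 35.9% of genes with shRNA1 and 38.8% with shRNA2, and among the members 3 higher with shRNA1, and 2 higher (OGDH and CS) and 1 lower (IDH1) with shRNA2.

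**Figure D3:**
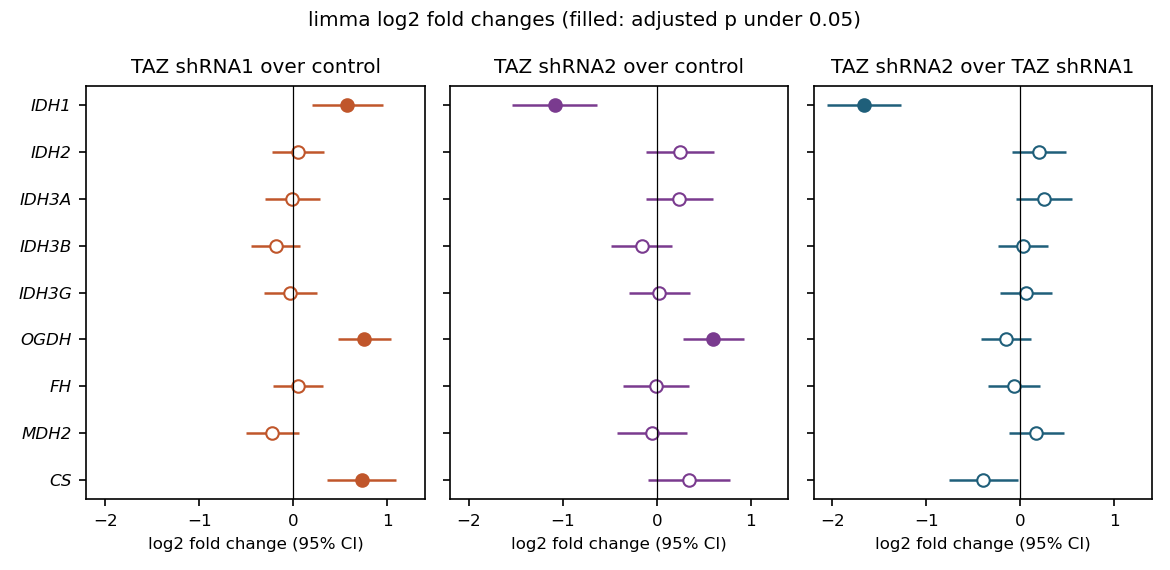
limma log2 fold changes (horizontal axis) of the 9 members with 95% intervals, for TAZ shRNA1 over control, TAZ shRNA2 over control and TAZ shRNA2 over TAZ shRNA1; filled points have an adjusted p under 0.05. IDH1 is at 0.58, -1.09 and -1.67 in the 3 panels, and the 6 members called in no comparison lie within 0.25 of 0.

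RPKM is scaled to gene length, so levels can be ordered between genes. In the control the order of mean RPKM was MDH2, FH, IDH2, CS, IDH3B, IDH1, IDH3A, IDH3G and OGDH. IDH1 and IDH3A overlapped there, and no other neighbours did. With shRNA1 the order was CS, MDH2, FH, IDH2, IDH1, IDH3B, IDH3A, IDH3G and OGDH, where MDH2 and FH overlapped. With shRNA2 it was MDH2, IDH2, FH, CS, IDH3B, IDH3A, IDH3G, IDH1 and OGDH, where FH and CS overlapped, as did IDH3G and IDH1. IDH1 thus ranked 5 of 9 with shRNA1, 8 of 9 with shRNA2 and 6 of 9 in the control. MDH2 ranked between the 96.0 and 96.8 percentile of all 13002 genes over the 6 libraries, IDH1 between 73.7 and 91.8, and OGDH between 56.5 and 69.3. Summed over the 9 members, the level was 749 and 724 RPKM with shRNA1, 697 and 682 RPKM with shRNA2, and 672 and 671 RPKM in the control. All 4 knockdown libraries lay above both control libraries, but this separation depends on CS. CS stood at 148 and 148 RPKM with shRNA1, 105 and 121 RPKM with shRNA2, and 76.9 and 103 RPKM in the control. Without CS the sums overlapped between the groups.

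Genes around the 9 members were described by 6 lists. These were the remaining cycle enzymes together with the cytosolic forms ACO1 and MDH1, pyruvate entry, feeding and draining reactions, and carriers. The others were further genes of NADPH and NADP+ supply, and dioxygenases that use alpha-ketoglutarate. Of 11 genes tested in the first list, SDHC alone rose with shRNA1 and with shRNA2. The list medians were 0.21 with shRNA1 and 0.19 with shRNA2 on the log2 scale. SDHC, a membrane anchor of succinate dehydrogenase with annotated pseudogenes that could share its reads, stood at 74.2 and 81.7 RPKM with shRNA1, at 96.4 and 87.4 RPKM with shRNA2, and at 60.6 and 54.4 RPKM in the control, so all 4 knockdown libraries lay above both control libraries. Its log2 fold change was 0.44 with shRNA1 (limma adjusted p = 0.0477) and 0.67 with shRNA2 (adjusted p = 0.0270). The shRNA1 call was lost without shRNA1 A or B, with no filter and with median centring, and the shRNA2 call without shRNA2 A or control B. Of 12 pyruvate entry genes 0 were called with shRNA1 and 2 fell with shRNA2, with medians of -0.033 and -0.11: PDK1, a kinase that turns pyruvate dehydrogenase off, by 0.73 (lost without shRNA2 B), and PDP2, a phosphatase that turns it on, by 0.68 (lost without shRNA2 A, shRNA2 B or control B, and with no filter). For shRNA2 over shRNA1, PDK1 had a log2 fold change of -0.66 (limma adjusted p = 0.0209).

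Of the genes that feed and drain the cycle, 14 were tested with shRNA1 and 15 with shRNA2, with medians of 0.12 and -0.24. The aspartate aminotransferases GOT1 and GOT2 fell with shRNA1, by 0.85 (lost without shRNA1 B) and 0.47 (lost without shRNA1 A or B, with quantile normalization and with limma-voom). GOT2, which has annotated pseudogenes, also fell by 0.77 with shRNA2 (lost without shRNA2 B). GPT2, the mitochondrial alanine aminotransferase, fell with shRNA2 (limma adjusted p = 0.0248). Its log2 fold change was -1.58, but -0.96 without control B and -2.19 without control A. This call was lost with robust empirical Bayes. ABAT, a GABA transaminase, stood at 1.11 and 1.17 RPKM with shRNA1, at 1.48 and 1.63 RPKM with shRNA2, and at 0.570 and 0.336 RPKM in the control. It reached the filter only through the shRNA2 libraries, where it is high, so its call with shRNA2 is counted below but given no p here. Between the hairpins ACLY, ME1, PCCA and PCCB, named after their values were seen, were lower with shRNA2 by log2 fold changes of -0.55, -0.73, -0.45 and -0.67. Of 6 mitochondrial carriers 0 were called with shRNA1 or with shRNA2. SLC25A12, an aspartate and glutamate carrier, came nearest with shRNA1, with a log2 fold change of 0.43 (limma adjusted p = 0.0670). SLC25A22, another carrier, named after its values were seen, was almost as near in the other direction, with -0.44 (limma adjusted p = 0.0674). As the mean of both hairpins SLC25A12 was called higher, with a log2 fold change of 0.40 (limma adjusted p = 0.0287). SLC25A11, which exchanges alpha-ketoglutarate for malate, was higher with shRNA2 than with shRNA1 by 0.73 (limma adjusted p = 0.0322).

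NADPH is the product that IDH1 and IDH2 also make. Among 8 other genes of NADPH and NADP+ supply, with the NAD+ kinases NADK and NADK2 included, NNT rose with both hairpins. Its rise was 0.79 with shRNA1 (lost without shRNA1 B) and 0.95 with shRNA2. NNT, the transhydrogenase of the inner mitochondrial membrane, stood at 37.3 and 42.5 RPKM with shRNA1, at 44.6 and 44.7 RPKM with shRNA2, and at 20.5 and 25.4 RPKM in the control. The folate enzymes MTHFD2, which has annotated pseudogenes, and ALDH1L2 fell with shRNA2. Their log2 fold changes were -1.74 and -1.75, at -1.24 and -0.88 without control B and at -2.24 and -2.63 without control A. The ALDH1L2 call was lost with a pseudocount of 1, with no filter and with robust empirical Bayes. List medians were -0.069 with shRNA1 and -0.19 with shRNA2. Of 21 dioxygenases 4 rose and 2 fell with shRNA1, and of 20 tested with shRNA2 1 rose, with medians of 0.18 and 0.052. TET2, which oxidises 5-methylcytosine, rose with both, by 0.80 (lost without shRNA1 B) and 0.92 (lost without shRNA2 B). The histone demethylases KDM3B and KDM2B rose with shRNA1 by 0.66 and 0.55 (both lost without shRNA1 A or B), and KDM6B fell by 0.96 (lost without shRNA1 A). The other calls with shRNA1, named after their values were seen, were ALKBH5, an RNA demethylase, with -0.58, and EGLN2, a HIF hydroxylase. EGLN2 stood at 1.45 and 1.58 RPKM with shRNA1, at 0.825 and 0.732 RPKM with shRNA2, and at 0.797 and 0.659 RPKM in the control, and it reached the filter only through the shRNA1 libraries. Between the hairpins MTHFD2 (-1.22) and KDM5B (-0.48, also named after its values were seen) were lower with shRNA2 and KDM6B (0.85) was higher. OGDHL, PDK4, PCK1, GLS2, GLUD2, GPT, SLC25A18, SLC25A21, ALDH1L1, EGLN3 and ADHFE1 were not analysed here.

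**Figure D4:**
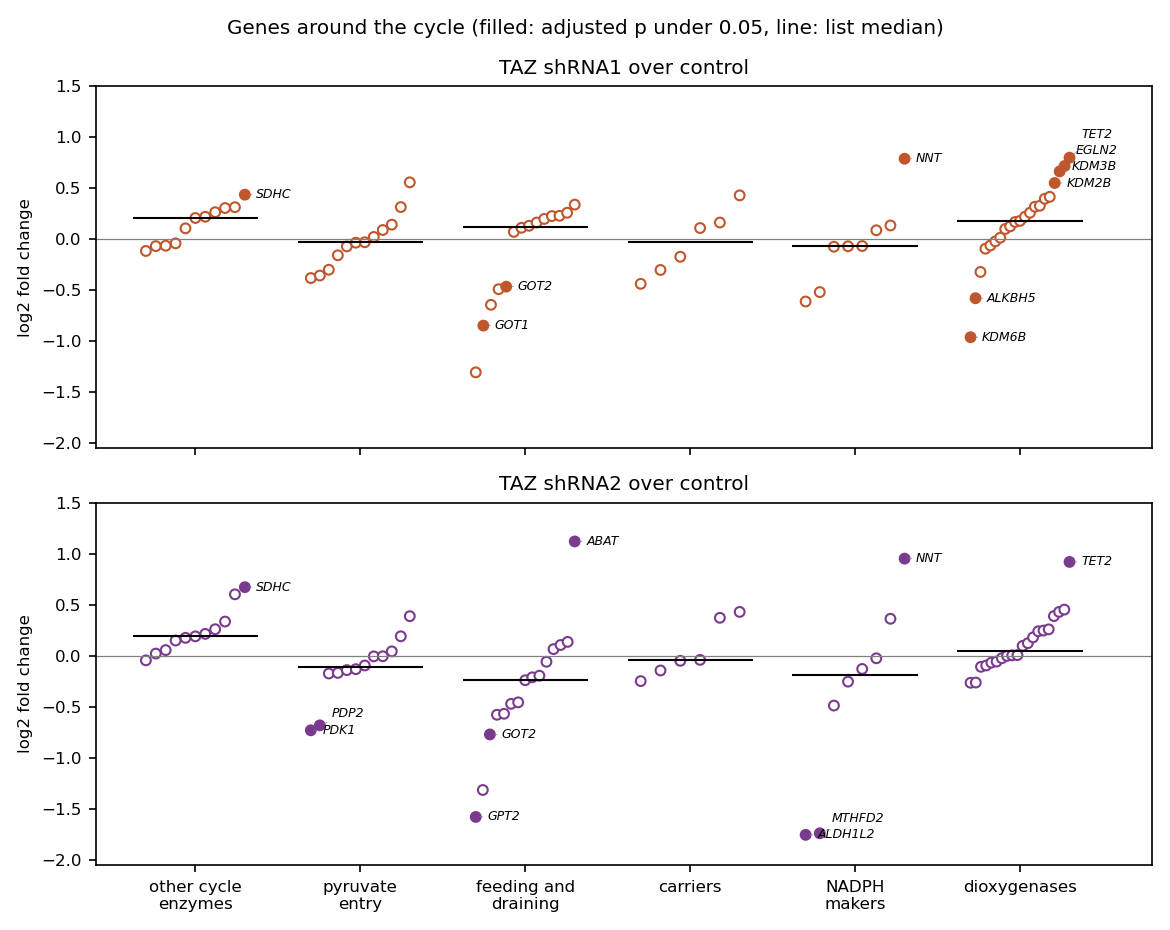
limma log2 fold changes (vertical axis) of the genes tested in 6 lists around the cycle, for TAZ shRNA1 over control (upper panel) and TAZ shRNA2 over control (lower panel); each circle is 1 gene, filled circles with names have an adjusted p under 0.05, and lines are list medians. The list medians lie between -0.069 and 0.21 with shRNA1 and between -0.24 and 0.19 with shRNA2.

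Over the 6 lists together, 6 genes rose and 4 fell of 72 tested with shRNA1, a called share of 13.9% beside 18.6% of all genes tested, and 4 rose and 6 fell of 72 tested with shRNA2, a share of 13.9% beside 15.7%. Between the hairpins 2 were higher and 7 lower of 73, or 12.3% beside 10.9%, and as the mean of both hairpins 10 were higher and 8 lower of 73, or 24.7% beside 26.3%. EGLN2 is 1 of the 6 that rose with shRNA1 and ABAT 1 of the 4 that rose with shRNA2, each passing the filter only through the group where it is high. ABAT is also 1 of the 10 higher as the mean of both hairpins, where it again reached the filter only through the hairpin libraries. Leaving out single libraries moved the number of genes of these lists called, and moved the calls over all genes tested as well.

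The genes whose profile over the 6 libraries was most like that of IDH1, among 10660 genes, were F2R, ELFN1-AS1 and MAPK6, with root mean square differences of centred log2 values of 0.15, 0.17 and 0.19, where IDH1's own profile has a root mean square of 0.71. F2R, the thrombin receptor, stood at 11.4 and 11.6 RPKM with shRNA1, at 4.04 and 3.78 RPKM with shRNA2, and at 8.52 and 7.96 RPKM in the control. MAPK6, an atypical MAP kinase, stood at 41.3 and 47.9 RPKM with shRNA1, at 15.2 and 13.7 RPKM with shRNA2, and at 27.1 and 28.6 RPKM in the control. Both had the order of groups of IDH1, with no overlap. They were picked for a profile like that of IDH1 in these same libraries, so this order is no separate result. ELFN1-AS1 was at 2.55 and 2.77 RPKM with shRNA1, 0.868 and 0.592 RPKM with shRNA2, and 2.55 and 1.22 RPKM in the control. For IDH2 the nearest profiles were CARD16, FAM192A and RING1, with differences of 0.017, 0.026 and 0.027 against a root mean square of IDH2 itself of 0.12.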

How the data were processed

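Directional libraries of total RNA from 6 samples were sequenced. Per the submitters' processing notes, the tools were DESeq 1.18.0, edgeR 3.8.6, HTSeq 0.6.1p2, TopHat2 2.0.11 and Trim Galore 0.4.0, on hg19, with no role given. The 2 tables deposited by the authors, 1 per hairpin, hold RPKM per library, a log2 fold change, an average level in log2 CPM, a score from a likelihood-ratio test, and raw and adjusted p-values, per the file headers. The control columns are identical in both tables. How genes were filtered for deposit is not given in the sources used here.

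Of 13004 rows, 21 date-like symbols were renamed by gene ID and 2 exact repeats dropped. Whole reads were recovered from RPKM steps for 13002 genes (100.0%, within 0.01 reads). limma 3.58.1 (R 4.3.3, prior variance trend, two-sided) was fitted to log2(RPKM + 0.5) of genes averaging 1 RPKM or more, with Benjamini-Hochberg adjustment over all genes and a threshold of 0.05. On this scale fold changes of low genes are understated. Each hairpin was fitted with the control in its 4 libraries; the hairpin difference and the mean of both used all 6. limma-voom on the recovered reads called 1182 genes higher and 779 lower with shRNA1, and 1080 and 704 with shRNA2. Ratios had an exact permutation test (scipy 1.17.1). The fit was also run on simulated data with independent libraries and an equal spread set for all genes, as a check of the code only. Named were all members, list genes past the threshold (at most 4 per list, ranked by the larger p of both hairpin comparisons, or the 2 nearest where none passed), and the 3 profiles nearest to IDH1 and IDH2; others are marked. The members and lists were chosen with earlier results of these data known. Alternatives were pseudocounts, filters, scalings, robust fits, a replicate block and each library left out. Some genes of these lists are not reported here.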

Additional observations from a re-analysis of the deposited data

Results flagged for a closer look

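IDH1 differed between the hairpins, which are directed against the same gene: the log2 fold change of shRNA2 over shRNA1 was -1.67 (SE 0.17, limma adjusted p = 0.00146, 2 libraries per group). Both shRNA2 libraries were below both shRNA1 libraries, and the control lay between them. Over the libraries left out in turn it lay between -1.82 and -1.51, and under the other settings between -1.68 and -1.64. For TAZ itself the log2 fold change of shRNA2 over shRNA1 was -1.001 (limma adjusted p = 0.00801). Whether the difference in IDH1 goes with the TAZ level or with the hairpin cannot be told apart with 1 hairpin at each level.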

How the results depend on the processing

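Among values of single members, 507 kept direction and call, 31 changed sign, 16 lost a call and 4 gained one; all members that changed sign were uncalled. Among genes of the lists 403 kept both, 5 changed sign, 29 lost a call and 19 gained one. With quantile normalization, removal of the gene length trend and limma-voom, log2 fold changes were 0.027, 0.0092 and 0.018 for IDH3A with shRNA1, 0.11, 0.083 and 0.044 for FH with shRNA2, 0.095, 0.0033 and 0.0063 for MDH2 with shRNA2, and 0.021, 0.13 and 0.040 for IDH3G over both hairpins. Without the length trend IDH3G had 0.11 with shRNA1 and IDH3B -0.0025 for shRNA2 over shRNA1, and with median centring FH had -0.0099 over both hairpins. Over the libraries left out, values ran with shRNA1 from -0.022 to 0.12 for IDH2, -0.12 to 0.10 for IDH3A, -0.097 to 0.033 for IDH3G, -1.49 to 0.27 for ALDH1L2 and -0.20 to 0.055 for PDK1; with shRNA2 from -0.029 to 0.084 for IDH3G, -0.041 to 0.015 for FH, -0.10 to 0.0013 for MDH2 and -0.41 to 0.19 for KDM6B; for shRNA2 over shRNA1 from -0.022 to 0.075 for IDH3B and -0.0054 to 0.12 for IDH3G; over both hairpins from -0.058 to 0.055 for IDH3G and -0.00096 to 0.040 for FH; and for the log2 ratio of IDH3G over IDH3A from -0.29 to 0.051. Over the libraries left out, members called ran from 0 to 3 with shRNA1, and from 1 to 2 with shRNA2 and over both hairpins. With the gene length trend removed 3 were called with shRNA2 and 3 over both hairpins. Genes of the 6 lists called ran from 1 to 28 with shRNA1 and from 6 to 14 with shRNA2 over the libraries left out. With shRNA2 they were 16 with all 6 libraries in one fit and 16 with the gene length trend removed. Where a group was left with 1 library, that library was assumed to vary like the others. The causes were not tested.

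The letters A and B are shared between groups, but no label says what they mark, so no pairing was assumed. Differences A minus B correlated across genes at 0.26 to 0.42 between groups. With the replicate block, calls over all genes went to 1914 higher and 1866 lower with shRNA1 and 2006 and 2164 with shRNA2, beside 1060 and 911, and 865 and 811, without it. Genes of the 6 lists called under the block were 23 with shRNA1 and 26 with shRNA2, with 3 members called with shRNA2 and 2 for shRNA2 over shRNA1. Among the carriers the block called SLC25A12 with shRNA1 (limma adjusted p = 0.0269) and shRNA2 (0.0405), and SLC25A11 with shRNA2 (0.0229). CS was called under the block with shRNA2 (limma adjusted p = 0.0284) and for shRNA2 over shRNA1 (0.0427).

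The members had 709 to 9289 reads per library. With 2 libraries per group, the SD of log2 A minus B over genes was 0.21 with shRNA1, 0.29 with shRNA2 and 0.34 in the control.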
